A study of Drosophila melanogaster with 4 samples.

Results

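The salivary gland glue genes of *Drosophila melanogaster* were followed in *poly* mutant larvae relative to wild-type larvae, array by array. The set was a named list of 10 genes: *Sgs1*, *Sgs3*, *Sgs4*, *Sgs5*, *Sgs7*, *Sgs8*, *Eig71Ee*, *ng1*, *ng2* and *ng3*. All 10 genes had a probe, and 10 of the 14569 probes read them. For 7 genes the probe carried that gene's symbol alone. The other 3 genes, *Sgs3*, *Sgs7* and *Sgs8*, were read by 3 probes whose annotation joins several of these symbols, and each of the 3 lists the RefSeq transcript of a single one of them. These are called here the *Sgs3*-transcript, *Sgs7*-transcript and *Sgs8*-transcript probes, and their values are not assigned to 1 gene, since related sequences could share them. RNA of whole *poly* mutant larvae was hybridized together with RNA of whole wild-type larvae on each of 4 2-colour arrays, 1 array per biological replicate, both taken early in the third instar after feeding on yeast paste. The mutant is given in the labels as poly05137/TM6B, a P-element allele of *poly* (CG9829, now *Elp6*) in a stock kept over the TM6B balancer chromosome. No source used here says that only homozygous larvae were taken for the arrays. The wild type was Canton S, and Canton S is the stated background of both. The dye on *poly* RNA was Cy5 for replicates 1 and 2 and Cy3 for replicates 3 and 4. All values are log2 ratios with *poly* on top, so a positive value is higher in *poly*. The deposited values hold no intensities, so the level of a gene and the brightness of its spot are not known here, nor can the presence of salivary gland RNA in either genotype be checked by level.

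Glue is a mixture of secreted, heavily glycosylated proteins that the larval salivary gland makes late in the third instar. The gland stores it in secretory granules and expels it at puparium formation, when it fixes the animal to its substrate. Synthesis is under the control of the steroid hormone ecdysone, which first switches the glue genes on in the gland and later, at a higher titre, switches them off, so that these genes serve as a marker of the larva's position within the instar. In RNA from whole larvae, fewer gland cells and less RNA per gland cell cannot be told apart.

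The array of replicate 3 stood apart from the others over all probes. There, 1643 probes (11.3%) had a ratio above 1.5, against 123, 151 and 217 probes (0.844%, 1.04% and 1.49%) on replicates 1, 2 and 4. The 1643 probes, picked by their value on replicate 3, had median ratios of −0.13, −0.41, 2.11 and 0.15 on replicates 1 to 4. Probes picked in the same way on the other arrays were not set beside them. Over all probes, the ratios of replicate 3 correlated with those of replicates 1, 2 and 4 at Pearson's r = 0.214, −0.183 and 0.299, against 0.385 to 0.619 among the other 3 arrays (across probes, which are not independent replicates). The array was nonetheless oriented as the others were for the mutated gene: the ratio of *poly* itself was −1.49, −1.57, −1.69 and −1.79 on replicates 1 to 4. The mean ratio of each glue probe is therefore given with and without replicate 3.

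The secretory glue genes split the arrays. All 7 probes for the *Sgs* genes and *Eig71Ee* were far higher in *poly* on replicate 3, with log2 ratios of 3.26 to 5.55, which are 9.61-fold to 46.8-fold. On replicates 2 and 4 the same 7 probes lay between −0.37 and 0.27, and on replicate 1 all 7 were below 0, between −3.31 and −0.09. The 3 *ng* probes did not follow: they were between −1.09 and 0.73 on replicate 3, and each had its highest value on replicate 4. None of the 10 probes differed from wild-type over the 4 arrays in limma's test (0 of 10 lower and 0 of 10 higher at an adjusted p under 0.05, beside 1.13% lower and 1.26% higher of all 14569 probes). At an unadjusted p under 0.05 there was 1 of 10, *ng3*, beside 16.1% of all probes.

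**Figure D1:**
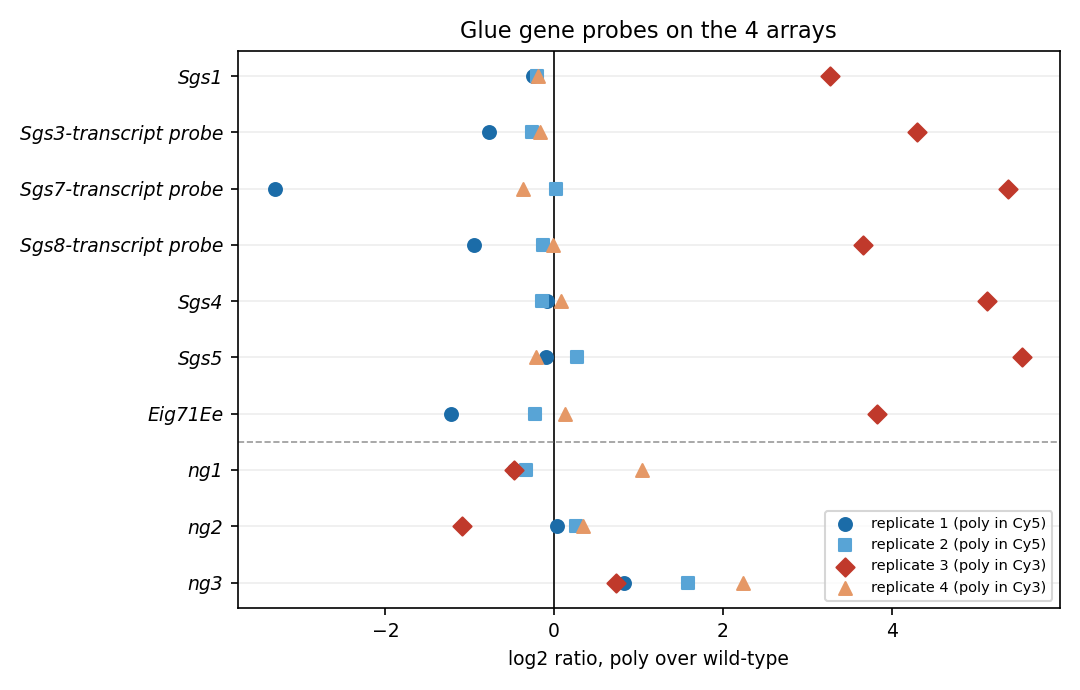
Log2 ratio of *poly* over wild-type (horizontal axis) for each of the 10 glue gene probes (rows), with 1 marker per array (n = 4 biological replicates); circles and squares are arrays with *poly* in Cy5, diamonds and triangles arrays with *poly* in Cy3. The 7 *Sgs* and *Eig71Ee* probes sit between 3.26 and 5.55 on replicate 3 and at or below 0.27 on the other arrays, while the 3 *ng* probes have their lowest values on replicate 3.

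*Sgs1* encodes a large, threonine-rich, mucin-like glue protein. Its ratios were −0.25, −0.20, 3.26 and −0.19 on replicates 1 to 4. The arrays of replicates 1, 2 and 4 thus lay within 0.06 of each other, and only replicate 3 was above 0. The mean was 0.66 ± 1.74 (SD, n = 4; adjusted p = 0.744 from limma), and without replicate 3 it was −0.21 (adjusted p = 0.380).

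*Sgs3*, *Sgs7* and *Sgs8* lie together on chromosome 3L as a small cluster; *Sgs3* is the mucin-like member, with a long repetitive stretch, and *Sgs7* and *Sgs8* encode short, related proteins without it. The *Sgs3*-transcript probe read −0.77, −0.26, 4.30 and −0.17 on replicates 1 to 4, and the *Sgs8*-transcript probe −0.95, −0.13, 3.65 and −0.01. Both were high on replicate 3, near 0 on replicates 2 and 4, and lowest on replicate 1. The *Sgs7*-transcript probe took this pattern furthest, with −3.31, 0.02, 5.38 and −0.37. The transcript it read was 9.89-fold lower in *poly* on replicate 1 and 41.6-fold higher in *poly* on replicate 3. Its SD of 3.62 between arrays was the largest of all 14569 probes, and its range was 8.69. The means were 0.78 ± 2.36, 0.43 ± 3.62 and 0.64 ± 2.05 for the *Sgs3*-, *Sgs7*- and *Sgs8*-transcript probes (SD, n = 4; adjusted p = 0.781, 0.944 and 0.797 from limma). All 3 means were below 0 without replicate 3, at −0.40, −1.22 and −0.36 (adjusted p = 0.306, 0.445 and 0.460).

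*Sgs4*, on the X chromosome, and *Sgs5*, on 3R, encode further glue proteins and had probes of their own. *Sgs4* read −0.09, −0.15, 5.13 and 0.08 on replicates 1 to 4. *Sgs5* read −0.09, 0.27, 5.55 and −0.21, and its value on replicate 3 was the highest of all probes on that array. Neither of these genes shared the low value on replicate 1 seen for the 3L cluster: apart from replicate 3, both stayed within 0.27 of 0. Their means were the highest of the *Sgs* probes, at 1.24 ± 2.59 for *Sgs4* and 1.38 ± 2.79 for *Sgs5* (SD, n = 4; adjusted p = 0.669 and 0.659 from limma). Without replicate 3 they were −0.05 and −0.01 (adjusted p = 0.850 and 0.978).

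*Eig71Ee* encodes a mucin-like salivary gland protein that is also found in glue, although the gene lies among the ecdysone-induced genes of a late puff. Its ratios of −1.23, −0.23, 3.82 and 0.13 on replicates 1 to 4 ran close to those of the 3L cluster, low on replicate 1 and high on replicate 3. The mean was 0.63 ± 2.21 (SD, n = 4; adjusted p = 0.817 from limma), and −0.44 without replicate 3 (adjusted p = 0.487).

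The new glue genes *ng1*, *ng2* and *ng3* are small X-linked genes found near *Sgs4* and named for their expression in the larval salivary gland. *ng1* read −0.48, −0.34, −0.48 and 1.04 on replicates 1 to 4, and *ng2* read 0.03, 0.26, −1.09 and 0.34. Neither was high on replicate 3, and *ng2* was lowest there. *ng3* was higher in *poly* on each of the 4 arrays, with 0.83, 1.58, 0.73 and 2.23, which made it 1 of 10 glue probes above 0 throughout, beside 14.5% of all probes. Its mean of 1.35 ± 0.70 (SD, n = 4) had a 95% interval of 0.60 to 2.09, and it did not pass after adjustment (adjusted p = 0.100 from limma), nor without replicate 3 (1.55, adjusted p = 0.0827). Of the alternative fits, only the one with array weights called it (1.33, adjusted p = 0.0296, in a fit that called 4.86% of all probes higher), and over the 10 alternatives its adjusted p lay between 0.0296 and 0.347. *ng1* and *ng2* had means of −0.06 ± 0.74 and −0.12 ± 0.67 (SD, n = 4; adjusted p = 0.966 and 0.910), and 0.08 and 0.21 without replicate 3 (adjusted p = 0.934 and 0.440). *ng1* and *ng2* are close copies of each other, and whether each probe reads only its own gene is not known here.

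Seen by array, the glue probes held the top of replicate 3. Of the 13 probes with a ratio above 3.5 on that array, 6 were glue probes: *Sgs5* ranked 1, the *Sgs7*-transcript probe 2, *Sgs4* 5, the *Sgs3*-transcript probe 6, *Eig71Ee* 8 and the *Sgs8*-transcript probe 9 of 14569. *Sgs1* ranked 32. Above 3 lay 7 of the 10 glue probes, beside 0.542% of all probes. Of the other probes above 3.5, those for the detoxification genes *Ugt37A3*, *Cyp28a5* and *Cyp9b2* and for CG1304 and CG11893 were at 2.72 or higher on all 4 arrays, unlike the glue probes. The remaining probes above 3.5 were that of the fat body gene *Fbp1* and 1 unnamed probe. All 7 *Sgs* and *Eig71Ee* probes had their highest value on replicate 3, beside 45.2% of all probes, and the 7 belonged to the 1643 probes above 1.5 there. Measured in that array's own median absolute deviations, *Sgs1* lay 8.91 and *Sgs5* 15.4 above the array's median. The part of the wide upper tail of replicate 3 in the glue values was not tested.

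**Figure D2:**
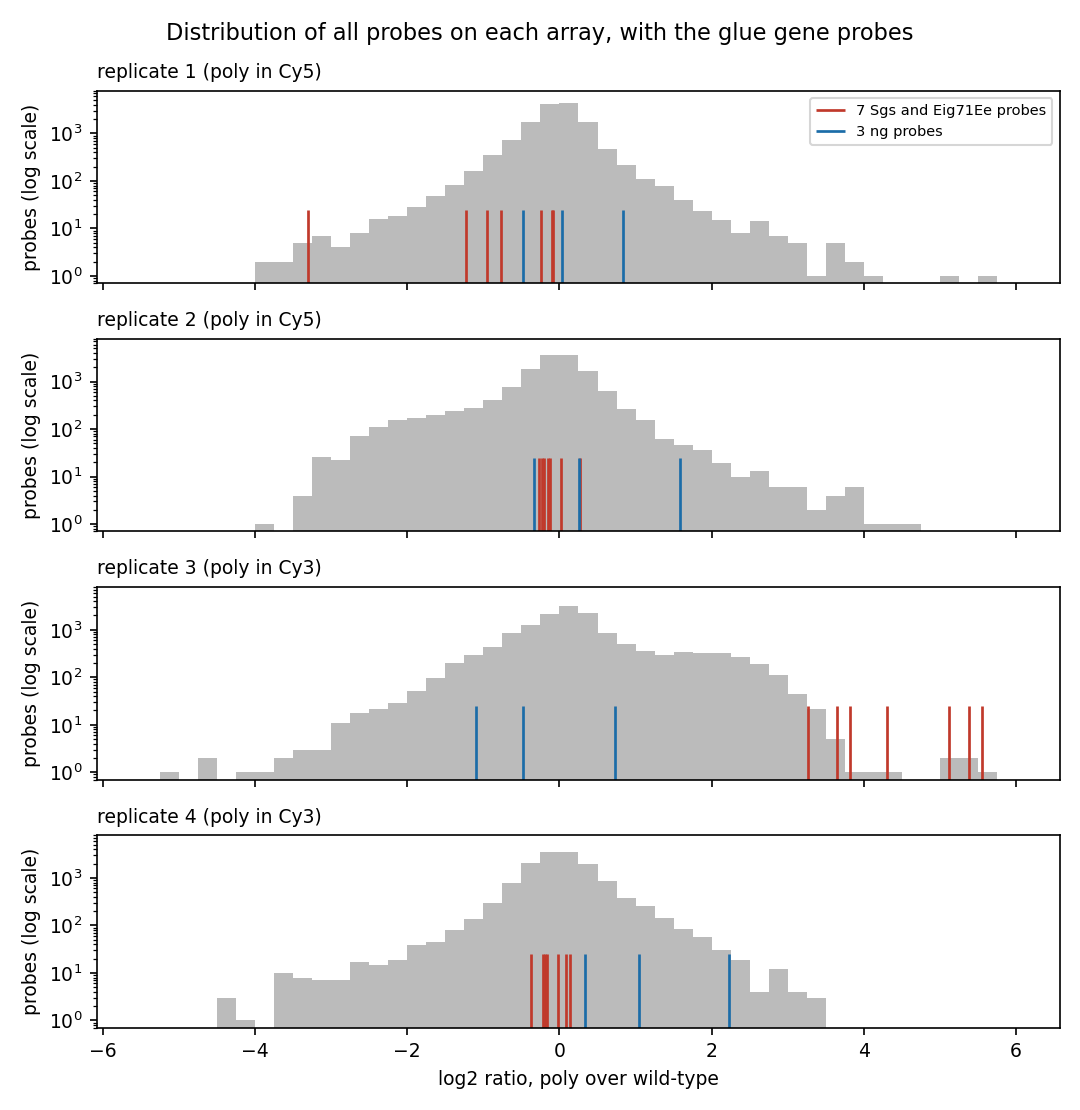
Histograms of the log2 ratio of *poly* over wild-type for all 14569 probes on each array (vertical axis, number of probes on a log scale), with vertical lines at the 7 *Sgs* and *Eig71Ee* probes and the 3 *ng* probes. Replicate 3 has 1643 probes above 1.5, and the 7 *Sgs* and *Eig71Ee* probes lie at the far end of that tail, from 3.26 to 5.55.

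The other arrays placed the glue genes differently. On replicate 1, 2 of the 10 glue probes were below −1, the *Sgs7*-transcript probe and *Eig71Ee*, beside 2.66% of all probes, and 0 were above 1 (2.16% of all). The *Sgs7*-transcript probe ranked 6 from the lowest on that array, at −16.5 of its median absolute deviations from the median. The lowest value of 5 of the 10 glue probes fell on replicate 1, beside 21.5% of all probes. On replicate 2 only *ng3* was above 1 (1 of 10, beside 2.51% of all probes) and 0 were below −1 (8.77% of all). On replicate 4 *ng1* and *ng3* were above 1 (2 of 10, beside 4.2% of all probes) and 0 were below −1 (2.66% of all). On replicate 3, 7 were above 1 and 1, *ng2*, was below −1, beside 15.8% and 5.02% of all probes. The medians of the 7 *Sgs* and *Eig71Ee* probes were −0.77, −0.15, 4.30 and −0.17 on replicates 1 to 4, and those of the 3 *ng* probes 0.03, 0.26, −0.48 and 1.04.

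Some probes had a low value on replicate 1 together with a high one on replicate 3. Below −2 lay 62 probes (0.426%) on replicate 1 and 93 (0.638%) on replicate 3, whose upper tail was wide (11.3% of all probes above 1.5). Those 11.3% had a median of 2.11 there, so values above 2 were common on replicate 3. On replicate 1, 0.844% of all probes were above 1.5. How many probes would meet both bounds with no link between the arrays was not tested, so the counts that follow are a description only. Of all 14569 probes, 5 were below −2 on replicate 1 and above 2 on replicate 3, and 0 showed the reverse. One of the 5 was the *Sgs7*-transcript probe. The others were *Lsp2*, encoding a larval serum protein of the fat body, with −3.48, 1.53, 3.43 and 1.12 on replicates 1 to 4, *Fbp1*, encoding the receptor that takes such proteins back up into the fat body, with −2.34, −0.12, 5.22 and −0.18, and CG11538 and CG17105. *Fbp1* and *Lsp2* had the largest SD after the *Sgs7*-transcript probe, ranking 2 and 3 of all probes. Among the glue probes, *Sgs5* ranked 5, *Sgs4* 9, the *Sgs3*-transcript probe 13, *Eig71Ee* 29, the *Sgs8*-transcript probe 71 and *Sgs1* 276, while the *ng* probes ranked between 2621 and 2977.

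**Figure D3:**
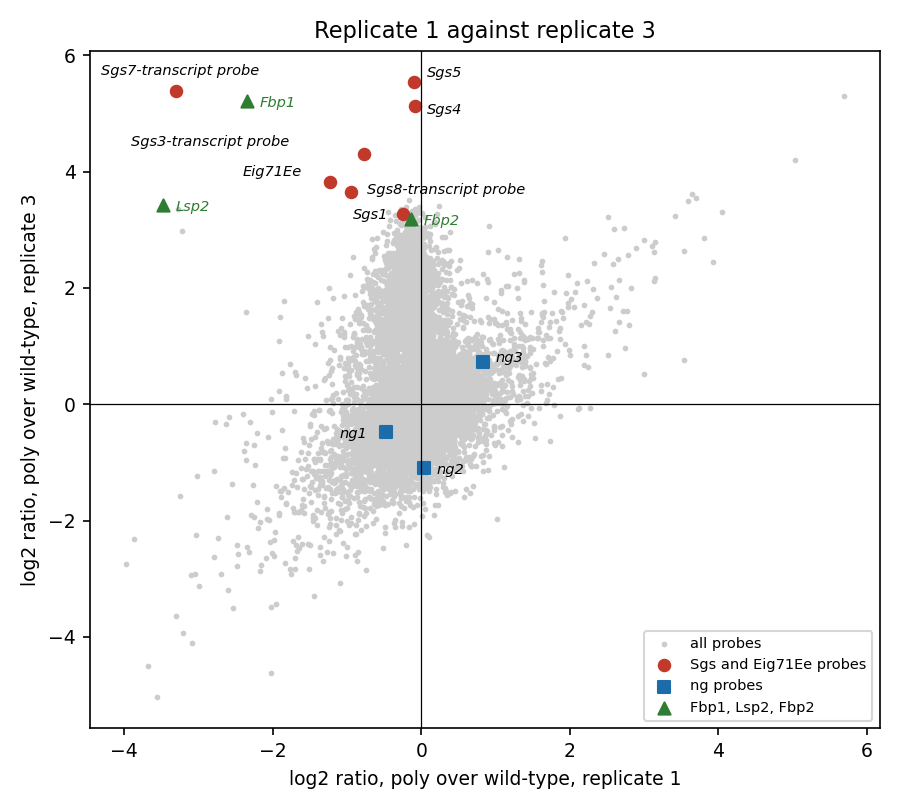
Log2 ratio of *poly* over wild-type on replicate 1 (horizontal axis) against replicate 3 (vertical axis) for all 14569 probes in grey, with the *Sgs* and *Eig71Ee* probes as circles, the *ng* probes as squares and 3 fat body genes as triangles. The *Sgs7*-transcript probe, at −3.31 and 5.38, lies at the upper left with *Fbp1* and *Lsp2*, and the *ng* probes lie within the bulk of the probes.

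Dye orientation was the one labelled difference between the arrays beside the replicate. Replicate 4, with *poly* in Cy3 like replicate 3, did not share its high values for the *Sgs* genes and *Eig71Ee*. The mean of the arrays with *poly* in Cy5 minus that with *poly* in Cy3 was −4.15 to −1.76 for the 7 *Sgs* and *Eig71Ee* probes and −0.69 to 0.52 for the *ng* probes. None of the 10 differed between orientations in limma's test (0 of 10, adjusted p = 0.498 to 0.862, and 0 of 10 at an unadjusted p under 0.05, beside 0.0% and 9.19% of all probes). Without replicate 4, where replicate 3 is the single array with *poly* in Cy3 and is assumed to vary like the other 2, 6 of the 10 differed, beside 7.91% of all probes: *Sgs1*, *Sgs4*, *Sgs5* and the *Sgs3*-transcript probe (adjusted p = 0.0293 each), the *Sgs8*-transcript probe (adjusted p = 0.0338) and *Eig71Ee* (adjusted p = 0.0372). In that fit the orientation and replicate 3 cannot be told apart. Without replicate 3, replicate 4 is the single array with *poly* in Cy3. The difference was then −1.27 to 0.30 for the 7 *Sgs* and *Eig71Ee* probes and −1.45 to −0.20 for the *ng* probes.

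The sign of the average rested on 1 array for most of these genes. Over the 4 arrays, 7 of 7 means of the *Sgs* and *Eig71Ee* probes were above 0, with a median of 0.66, and limma's 95% intervals all held 0, the narrowest from −1.10 to 2.41 for *Sgs1* and the widest from −3.19 to 4.06 for the *Sgs7*-transcript probe. Without replicate 3, 0 of 7 were above 0, with a median of −0.36 and a range of −1.22 to −0.01. For the *ng* probes, 1 of 3 means was above 0 over the 4 arrays and 3 of 3 without replicate 3 (medians −0.06 and 0.21).

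**Figure D4:**
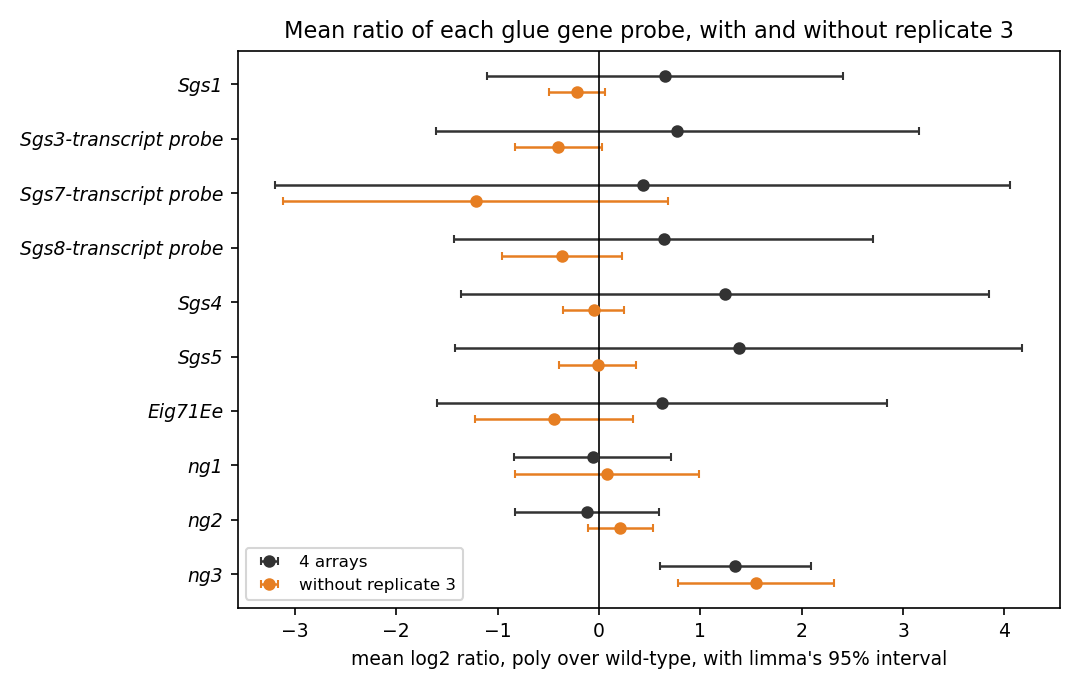
Mean log2 ratio of *poly* over wild-type (horizontal axis) with limma's 95% interval for each glue gene probe (rows), over 4 arrays in black and without replicate 3 in orange. The 7 *Sgs* and *Eig71Ee* means are between 0.43 and 1.38 over the 4 arrays and between −1.22 and −0.01 without replicate 3, and *ng3* has an interval above 0 in both.

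Other genes of the salivary gland had lower ratios on replicate 3 than the *Sgs* and *Eig71Ee* probes. Of 10 listed genes 9 were measured, and 0 passed limma's test in either direction, with 2 at an unadjusted p under 0.05 (of 11907 named genes, 149 were lower, 169 higher and 2027 at an unadjusted p under 0.05). These were *pip*, encoding a sulphotransferase of the gland, and *PH4alphaSG2*, encoding a gland prolyl hydroxylase, at means of −0.47 and −0.44 (adjusted p = 0.135 and 0.171). The value of *pip* is that of its probe with the smallest p of 10, and the mean over its 10 probes was −0.042. The medians of the 9 measured genes were −0.41, −0.30, 0.23 and −0.16 on replicates 1 to 4. *fkh*, which encodes the Fork head factor that activates glue genes in the gland, read −0.60, −0.68, 0.51 and 0.12. *sage*, encoding a gland-specific helix-loop-helix factor that acts with Fork head, read −0.21, −2.50, 1.61 and −0.21, where 2.68% of all probes lay below −2 on replicate 2. The highest of the 9 on replicate 3 was *Sgs5bis*, a glue gene relative next to *Sgs5*, with −0.92, −0.17, 2.53 and 0.22 (adjusted p = 0.821).

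The glue proteins are glycosylated on serine and threonine by the Pgant family of enzymes. Of 13 listed genes for this modification 10 were measured and 0 were called by limma, 2 having an unadjusted p under 0.05 (*Pgant1*, at a mean of −0.98 with adjusted p = 0.0781, and *Pgant6*, at −0.29). The medians were −0.33, −0.40, −0.17 and −0.13 on replicates 1 to 4. *Pgant9*, which in the salivary gland acts on glue mucins, read 0.41, 0.58, −0.52 and −0.33, and *Pgant35A* read −0.21, −0.74, 2.31 and −0.56. On replicate 3, 1 of the 10, *Pgant35A*, was above 1, beside 1934 of the 11907 named genes.

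The late puff genes that surround *Eig71Ee* had lower ratios than *Eig71Ee* on replicate 3. Of 10 such genes 8 were measured, 0 were called by limma and 0 had an unadjusted p under 0.05, with medians of 0.18, 0.07, 0.39 and 0.03 on replicates 1 to 4. On replicate 3, 2 of the 8 were above 1, *Eig71Ei* (1.62) and *Eig71Ea* (1.29), beside 1934 of the 11907 named genes. *Eig71Ea* also had a low value on replicate 2, with −0.14, −2.64, 1.29 and 0.18 on replicates 1 to 4. On replicate 2, 390 of all probes (2.68%) lay below −2, the most of any array. Genes of the ecdysone response, 15 measured of 19, had 0 calls from limma, 4 at an unadjusted p under 0.05, and medians of 0.0029, −0.21, 0.11 and −0.20. The smallest p-values were those of *Cyp18a1*, encoding an enzyme that inactivates ecdysone, at a mean of −0.69 for its best probe of 2 (adjusted p = 0.0653), and of *ImpL2*, encoding a secreted protein that binds insulin-like peptides, at 0.60 for its best probe of 3 (adjusted p = 0.0780). Among the others *br*, whose Broad factors activate glue genes, had an adjusted p of 0.295 for its best probe of 5. On replicate 3, 2 of the 15 were above 1, *E23* at 2.11 and *Eip93F* at 2.17, beside 1934 of the 11907 named genes. Genes of ecdysone synthesis, 5 measured of 10, had 0 calls from limma, 0 at an unadjusted p under 0.05, and medians of −0.05, −0.18, 0.29 and −0.19.

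Fat body genes also differed widely between replicates 1 and 3. Of 6 listed genes 3 were measured (*Lsp2*, *Fbp1* and *Fbp2*) and 0 were called by limma, *Fbp2* alone having an unadjusted p under 0.05 (1 of 3; adjusted p = 0.169), and the medians were −2.34, 1.53, 3.43 and 1.12 on replicates 1 to 4. All 3 had their lowest value on replicate 1 and were above 1 on replicate 3, beside 2588 and 1934 of the 11907 named genes. On replicates 2 and 4 *Fbp1*, at −0.12 and −0.18, lay near 0 as the *Sgs* and *Eig71Ee* probes did, whereas *Fbp2*, which read −0.13, 3.62, 3.19 and 3.43 on replicates 1 to 4, and *Lsp2* were above 1 there. Gut genes (7 measured of 8, 0 called by limma and 3 at an unadjusted p under 0.05) had medians of 0.38, 1.15, −0.16 and 1.03, and muscle genes (3 measured of 6, 0 called and 2 at an unadjusted p under 0.05) had a median of their means of −0.24; 0 of 4 larval cuticle genes were measured. The part of these other tissues in the glue values was not tested.

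In the order of genes along the chromosomes, the high values of replicate 3 did not extend to all neighbours of the glue genes. *Sgs8* and *Sgs7* lie next to each other on 3L and *Sgs3* is 2 places on, and *ng2*, *ng3* and *ng1* are adjacent on the X chromosome with *Sgs4* 3 places after *ng1*. Of the genes within 2 places of a glue gene, 15 outside the set were measured, 0 were called by limma and 0 had an unadjusted p under 0.05. On replicate 3 they ranged from −0.80 to 2.53, with a median of 0.36, the highest being *Sgs5bis*. Around the 3L cluster of *Sgs3*, *Sgs7* and *Sgs8* only CG7512 was measured, at 0.42 on replicate 3. The neighbours of that cluster are thus little covered, and some of those measured flank only *ng* genes. Between *ng1* and *Sgs4* lie *ng4*, at −0.02, −0.93, 2.37 and −0.41 on replicates 1 to 4, and *Pig1*, at 0.64, −0.09, 0.36 and 0.40. *Eig71Ed* and *Eig71Ef*, on either side of *Eig71Ee*, read −0.06 and 0.40 on replicate 3, against 3.82 for *Eig71Ee*.

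The genes outside the set with ratios closest to the medians of the glue probes (−0.36, −0.14, 3.74 and 0.03) were CG32345, CG13326, CG32488, *I-t*, CG5334 and CG31784, with root-mean-square differences over the 4 arrays of 0.231 to 0.286. On replicate 3 they lay between 3.24 and 3.39, and on the other arrays within 0.46 of 0. Both follow from choosing the 6 by closeness to these medians. That choice also leaves out genes as low on replicate 1 as the *Sgs7*-transcript probe or *Eig71Ee*.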

How the data were processed

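RNA of whole *poly* and wild-type larvae was compared on 4 2-colour long-oligonucleotide arrays. The authors quantified the spots, normalized them with vsn and deposited log2 ratios for 14569 probes, with 0 missing values. Of background correction and spot filters nothing is given in the sources used here. Every column was read with *poly* on top and no sign turned: their means match the direction and size the study lists for genes with a named probe. With no intensities or depth, the 4 arrays limit the precision.

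Probes were named through the platform annotation, with symbols updated through RefSeq assembly GCF_000001215.4 (12011 by gene identifier, 107 by transcript accession, 539 kept, 96 with several symbols, 1 with none, 1815 unnamed here), used for names and gene order only. Sequences were not used here.

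Each probe's 4 ratios were tested against 0 with limma (two-sided, 4.97 degrees of freedom, 1.97 of them from the prior), p-values adjusted by Benjamini–Hochberg over the 14569 probes, threshold 0.05. A second fit added dye orientation. Named genes are the 10 members on every array, *poly*, the 6 genes of most similar ratios, neighbours in gene order and up to 4 genes of each list; further genes (*fkh*, *sage*, *Sgs5bis*, *Pgant9*, *Pgant35A*, *E23*, *Eip93F*, *Eig71Ea*, CG11538, CG17105 and the highest probes of replicate 3) were picked with their values in view. The members and lists were chosen with earlier results of these data known. The listed alternatives were a dye term, median centring, scaled arrays, probes averaged per gene, array weights, a robust prior and each replicate left out. The fit was tested on simulated data. Fits ran in R 4.3.3 with limma 3.58.1, and tables and figures were made in Python 3.11.15 (numpy 2.4.6, matplotlib 3.10.9, pandas 2.3.3).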

Additional observations from a re-analysis of the deposited data

Results flagged for a closer look

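Of the 47 probes and genes named above, 15 had 1 array so far from the other 3 that its gap exceeded Dixon's 95% critical value for 4 samples. Chance alone sets off this rule in about 1 of 20 groups, and it held for 7.46% of all 14569 probes, with 4.53% set apart by a high replicate 3. Among the glue probes, *Sgs1* at 3.26, the *Sgs3*-transcript probe at 4.30, *Sgs4* at 5.13 and *Sgs5* at 5.55 lay above the other arrays on replicate 3, and *ng1* at 1.04 on replicate 4. The *Sgs7*- and *Sgs8*-transcript probes and *Eig71Ee* stayed under the critical value. Among the other genes, *Eig71Ei* at 1.62 and *E23* at 2.11 were set apart on replicate 3, as were the 6 genes chosen for ratios close to the glue medians, whose choice builds this in: CG32345 at 3.39, CG13326 at 3.36, CG32488 at 3.33, *I-t* at 3.28, CG5334 at 3.28 and CG31784 at 3.24. *Fbp2* at −0.13 on replicate 1 and CG11893 at 2.73 on replicate 4 lay below their other arrays. *E23* and CG11893 were also picked with their values in view, so the 15 of 47 cannot be read against the share of all probes.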

How the results depend on the processing

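None of the 10 member probes was called lower in any of the 10 alternatives, and 1 was called higher in 1 of them (*ng3*, with array weights). Of 100 member ratios under the alternatives, 18 changed sign, 9 of them without replicate 3 and 6 with array weights, which gave replicate 3 the lowest weight (0.289, against 2.10, 2.44 and 0.675 for replicates 1, 2 and 4). With array weights the ratios were −0.035 (*Sgs1*), −0.20 (*Sgs3*-transcript), −1.01 (*Sgs7*-transcript), −0.23 (*Sgs8*-transcript), −0.35 (*Eig71Ee*) and 0.11 (*ng2*), and with scaled arrays the *Sgs7*-transcript probe was at −0.18. The dye term, median centring, averaged probes and the robust prior turned 0 of 10. Leaving out each replicate in turn gave −0.21 to 0.96 for *Sgs1*, −0.40 to 1.29, −1.22 to 1.68 and −0.36 to 1.17 for the *Sgs3*-, *Sgs7*- and *Sgs8*-transcript probes, −0.052 to 1.71 for *Sgs4*, −0.011 to 1.91 for *Sgs5*, −0.44 to 1.24 for *Eig71Ee*, −0.43 to 0.076 for *ng1*, −0.27 to 0.21 for *ng2* and 1.05 to 1.55 for *ng3*; the medians of the 7 *Sgs* and *Eig71Ee* and the 3 *ng* probes lay between −0.36 and 1.29 and between −0.27 and 0.21. Of all probes, 165 were lower and 184 higher; this became 74 and 102 with a dye term, 149 and 90 with scaled arrays, 715 and 708 with array weights, and 0 to 163 and 0 to 236 with a replicate left out. Probes differing between dye orientations numbered 0 to 1152 with a replicate left out, 0 to 6 of them glue probes. The cause of these changes was not tested. Each array holds both genotypes of 1 replicate, so the test of the 4 ratios against 0 was already paired by array. With 4 ratios and no intensities, dim and bright spots cannot be told apart.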
